A study of Mus musculus with 19 samples.

Results

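The effect of oleic acid on fat cells was examined by setting the 3 arrays labelled OA-treated against the 4 labelled control, over every gene that the array annotation names by exactly 1 symbol. That rule gave 18820 genes, each represented by its brightest probe set, and 7 of the 19 arrays of the series. The cells were 3T3-L1, a mouse fibroblast line that turns into lipid-filled adipocytes under hormonal induction, and all arrays come from that line. Every group stood in serum-free medium from day 7 of differentiation and was treated for 48 h from day 8. The OA group received oleic acid, a fatty acid of 18 carbons with 1 double bond, at 250 µM, and the control group received the vehicle alone, ethanol with 2% bovine serum albumin. The remaining groups had the same dose and time of stearic acid (SA, 18 carbons, no double bond), palmitoleic acid (PMA, 16 carbons, 1 double bond, titled PMO in the sample titles) or palmitic acid (PA, 16 carbons, no double bond), with 4 arrays each. The OA group has 3 arrays because a replicate was lost when cRNA was amplified. The labels call the arrays biological replicates without saying what separated them, so the p-values measure the spread between these cultures or extracts.

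Oleic acid is the most common monounsaturated fatty acid of animal fat, and adipocytes take it up, join it to coenzyme A and store it as triglyceride in droplets coated by perilipins. Fatty acids also act as ligands of the PPAR receptors, which drive genes of fat storage and oxidation, and of fatty acid receptors at the cell surface. Saturated fatty acids are known to raise inflammatory and stress genes in adipocytes, whereas oleic acid is generally held to be milder. Adipocytes also build a collagen and proteoglycan matrix and secrete many proteins, among them lipocalin 2, an iron-siderophore carrier of the acute phase.

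Oleic acid moved few genes, and by small amounts. Values are log2 expression after RMA, a difference is the mean of the OA arrays minus the mean of the controls on that scale, and a gene was said to rise or fall when the adjusted p of limma's moderated test was under 0.05. Of 18820 genes, 162 passed (0.861%), of which 86 rose (0.457%) and 76 fell (0.404%). An unadjusted p under 0.05 was found for 2190 genes, 1504 higher and 686 lower, so higher was the more common direction before any list was chosen. The median size of a change was 0.314, with medians of 0.298 for rises and -0.329 for falls, against 0.0156 for the signed difference over all genes. Only 9 of the 162 genes went past 1.5-fold, 3 upward (Scarna13, Fmod, Sfrp2) and 6 downward (Lcn2, Egr1, Znfx1, Car6, Prg4, Ifi27l2a). In all 162 the 3 OA arrays lay outside the range of the 4 controls, which held for 14.4% of all genes, 1830 with OA above and 871 with OA below. Many calls sat near the threshold: 80 of the 162 had an adjusted p from 0.03 to 0.05, and 20 had one under 0.01. Just inside it were Dusp6, Fancd2, Pck1 and Garnl3, at 0.0485 to 0.0492, and just outside it were Ifi27, Plin1, Lrp6 and Sdhaf3, at 0.0501 to 0.0507.

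**Figure D1:**
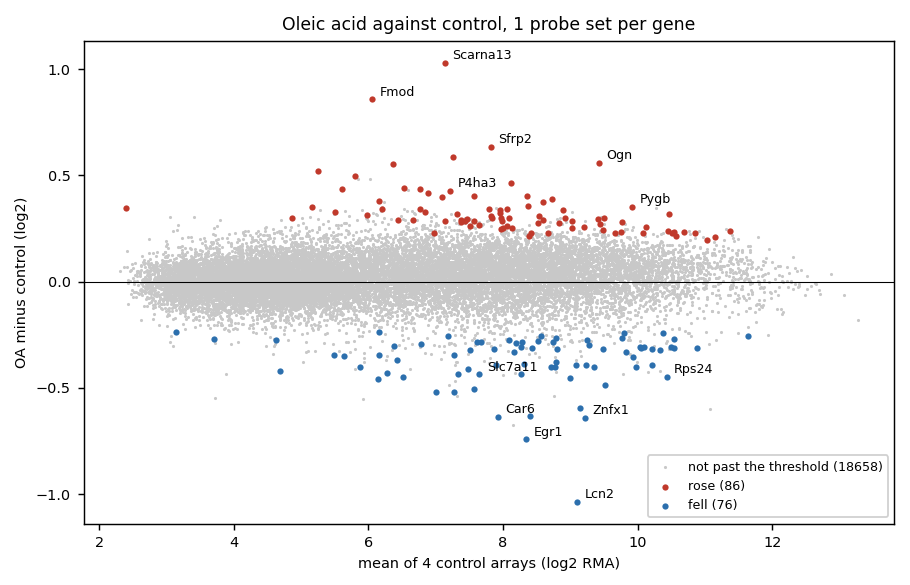
Difference of oleic acid from control (vertical, log2) against the mean of the 4 control arrays (horizontal, log2 RMA) for 18820 genes; red points rose (86), blue points fell (76) and grey points did not pass. Changes are small at every level, and Scarna13, Fmod, Lcn2 and Egr1 lie farthest from 0.

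The count of changed genes depended strongly on single arrays. It was 46, 50 and 22 without OA replicate 1, 2 or 3, and 65, 105, 64 and 33 without control replicate 1, 2, 3 or 4. A core of 14 genes passed whichever of the 7 arrays was left out. The 6 that rose were Fmod, Pygb, B3galt2, Ogn, P4ha3 and Clk1, and the 8 that fell were Lcn2, Egr1, Znfx1, Med21, Gm10548, Lsm7, Immp1l and Rps24. Of these, Immp1l did not pass when its probe sets were averaged (adjusted p = 0.121), and its dimmer probe set differed by -0.14. Every other call against control named here was lost when at least 1 array was left out. Calls lost whichever of the 7 arrays was left out include Hmgn5, Ier2, Itih4, Ptgir, Srxn1, Col11a1, Col6a1, Thbs2, Pck1, Mlx and Cox6a2. Those that passed in only 1 of the 7 fits include Junb, Dusp6, Ccl9, Lox, Plat, Itga1, Zfp521, Casp4, Plpp3, Asah2 and Rpa3. The array medians (5.25 to 5.27 in OA, 5.23 to 5.31 in control) and the correlations within a group (0.9957 to 0.9975 and 0.9959 to 0.9971) did not set any of the 7 arrays far apart. Array quality weights, not used in the main fit, differed more. They were 1.296, 0.573 and 2.544 in OA replicates 1, 2 and 3, and 0.845 to 1.723 in the controls. The other groups also entered the pooled spread. Among their arrays PA replicate 2 had the lowest weight (0.292), with a median of 5.425 and correlations within its group of 0.9908 to 0.9952. PMA replicate 1 had a weight of 0.441 and a median of 5.41.

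Several of the larger rises were in genes of the extracellular matrix and its secreted regulators. Fmod, which encodes fibromodulin, a small leucine-rich proteoglycan that binds collagen fibrils, read 7.01, 6.72 and 7.02 in the OA arrays and 6.12, 6.12, 6.04 and 5.95 in the controls. The groups were far apart, and the difference was 0.86 (95% interval 0.68 to 1.04, adjusted p = 1.3e-05), or 1.81-fold. Ogn, which encodes the related proteoglycan osteoglycin, read 9.87, 10.10 and 10.01 under oleic acid against 9.50, 9.58, 9.39 and 9.26. All OA arrays were above all controls, by 0.56 (95% interval 0.38 to 0.74, adjusted p = 0.00419). Sfrp2, a secreted Frizzled-related protein that modulates Wnt signals, stood at 8.41, 8.64 and 8.30 with oleic acid and 7.92, 7.85, 7.87 and 7.63 with vehicle, a difference of 0.63 (95% interval 0.41 to 0.86, adjusted p = 0.00898). Its highest control stayed below its lowest OA array. P4ha3, a catalytic subunit of the prolyl hydroxylase that modifies collagen, went from 7.30, 7.26, 7.17 and 7.11 in the controls to 7.80, 7.48 and 7.64 in OA, again without overlap, a rise of 0.43 (95% interval 0.29 to 0.57, adjusted p = 0.00419). Of these 4 genes, Sfrp2 lost its call without OA replicate 2 (adjusted p = 0.0583). Genes of other kinds rose as much. Hmgn5, a nucleosome-binding protein, rose by 0.58 (95% interval 0.32 to 0.85, adjusted p = 0.0348), Mastl, a mitotic kinase, by 0.52 (95% interval 0.31 to 0.73, adjusted p = 0.0172), Plagl1, a zinc finger transcription factor, by 0.50 (95% interval 0.32 to 0.68, adjusted p = 0.00962), and Clk1, a kinase of splicing factors, by 0.47 (95% interval 0.31 to 0.62, adjusted p = 0.00419).

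The matrix lists had medians slightly above 0. Lists of other kinds did too, with 0.092 for DNA replication and mitosis, 0.080 for glucose and insulin genes and 0.072 for cholesterol genes. Over all genes tested, 10676 of 18820 were higher and the median was 0.0156. Among 16 small leucine-rich proteoglycans 2 rose (Fmod and Ogn) and 0 fell, 11 were higher, and the median difference was 0.058, which was 0.034, 0.029 and 0.029 without control replicate 2, control replicate 3 or OA replicate 2, and 0.089 without OA replicate 3. Lum (0.22) and Dcn (0.20), the abundant fibril-binding members lumican and decorin, did not pass (adjusted p = 0.336 and 0.119). Of 26 collagen chains 22 were higher and 4 lower, with a median of 0.098, and 2 rose, Col6a1 by 0.20 and Col11a1 by 0.23. Collagen genes are long, with a median genomic span of 122 kb, and the median difference of all 917 genes over 100 kb with a control level of at least 7 was 0.090. Col8a1 had a larger difference (0.32) that did not pass (adjusted p = 0.117). In 45 other matrix proteins, crosslinkers and proteases 2 rose and 2 fell, with a median of 0.072. The rises were Lox, the lysyl oxidase that crosslinks collagen and elastin (0.32 (95% interval 0.18 to 0.45, adjusted p = 0.0259)), and Thbs2, a thrombospondin (0.23 (95% interval 0.13 to 0.34, adjusted p = 0.0356)). The falls were Prg4 and Mmp11. Prg4, the lubricant proteoglycan lubricin, read 7.71, 7.99 and 7.59 in OA and 8.35, 8.61, 8.32 and 8.32 in control, so that control replicate 2 stood above the other controls, and fell by 0.63 (difference -0.63; 95% interval -0.89 to -0.38, adjusted p = 0.0177). Mmp11, the matrix metalloproteinase stromelysin 3, read 8.90, 8.89 and 8.74 against 9.09, 9.36, 9.17 and 9.32, a difference of -0.39 (95% interval -0.54 to -0.25, adjusted p = 0.0117).

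Other changed genes of the cell surface and the secreted proteins were outside those lists or in neighbouring ones. Of 28 secreted Wnt modulators and ligands Sfrp2 alone rose. Rspo2 (0.27, adjusted p = 0.176) and Axin2, a target of the pathway (0.18, adjusted p = 0.351), did not pass. Cxcl12, a chemokine made by stromal cells, read 7.79, 7.86 and 7.89 in OA and 7.58, 7.54, 7.61 and 7.53 in control, a rise of 0.28 (95% interval 0.18 to 0.39, adjusted p = 0.0117). Plat, tissue plasminogen activator, read 7.14, 7.17 and 7.29 against 6.67, 6.65, 6.94 and 6.81 and rose by 0.44 (95% interval 0.24 to 0.63, adjusted p = 0.0291). Adgrg6, an adhesion G protein-coupled receptor, rose by 0.55 (95% interval 0.33 to 0.78, adjusted p = 0.0172), and Itga1, a collagen-binding integrin subunit, by 0.40 (95% interval 0.22 to 0.58, adjusted p = 0.0292). Of 21 preadipocyte and fibroblast markers 1 rose, Zfp521 (0.27), a zinc finger protein that restrains adipogenesis, 0 fell, and the median was 0.061 (0.030 without control replicate 2). Dlk1, the classic preadipocyte marker, differed by 0.22 (adjusted p = 0.113). In a bulk culture, more cells of a type and more RNA per cell cannot be told apart. The mean level over the fibroblast list was 8.11 to 8.19 in the OA arrays and 8.08 to 8.11 in the controls, and its part in the matrix results was not tested.

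**Figure D2:**
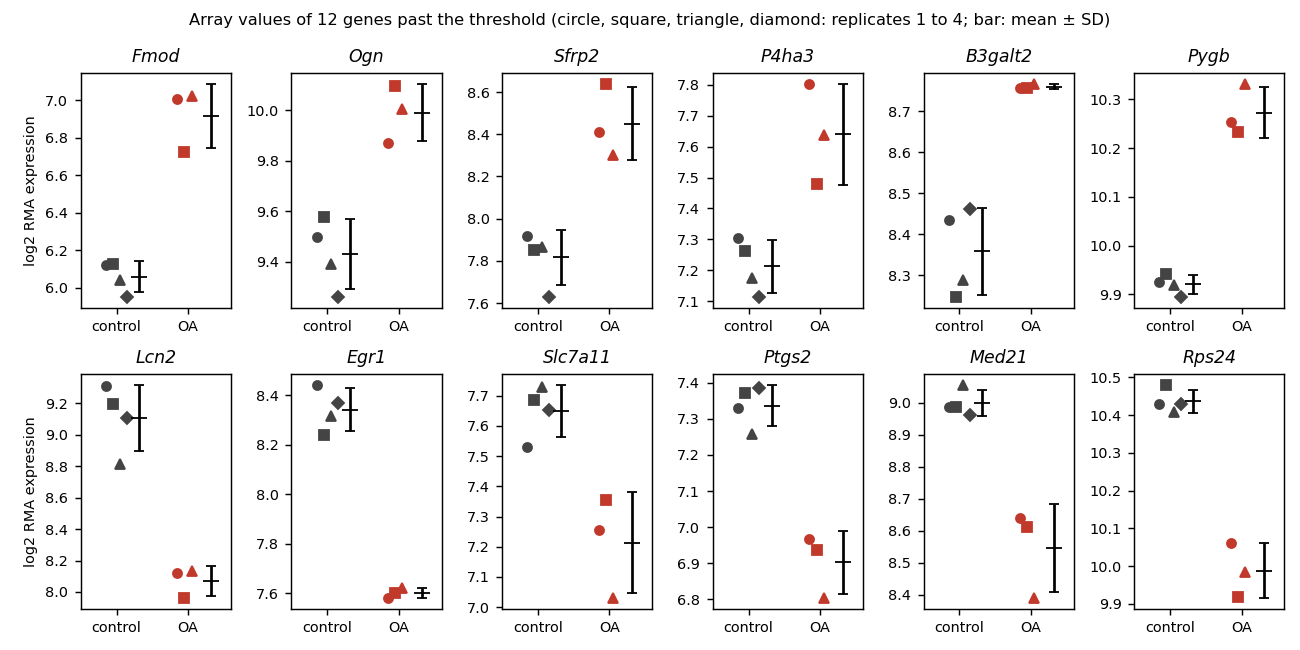
Log2 RMA expression of 12 genes that passed, 6 higher and 6 lower under oleic acid, in the 4 control arrays (dark) and 3 OA arrays (red), with mean ± SD; marker shapes give the replicate number. In every panel the OA arrays lie wholly above or below the controls, and each panel has its own vertical scale.

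Falls were led by an acute phase gene and a growth factor-induced transcription factor. Lcn2 read 8.12, 7.96 and 8.13 in the OA arrays and 9.31, 9.19, 8.81 and 9.11 in the controls. The gap between the groups was wider than the range of either, and the difference of -1.04 (95% interval -1.24 to -0.83, adjusted p = 1.08e-05) means that the control level was 2.05-fold the OA level. Egr1, an immediate early transcription factor induced within minutes by growth factors through ERK and SRF, read 7.58, 7.60 and 7.62 against 8.44, 8.24, 8.32 and 8.37. The OA arrays lay within a narrow band below all controls, with a difference of -0.74 (95% interval -0.89 to -0.59, adjusted p = 1.08e-05), and the control level was 1.67-fold that of OA. Itih4, another acute phase protein gene, fell as well (-0.39 (95% interval -0.59 to -0.20, adjusted p = 0.0454)). Of 21 acute phase and complement genes only Lcn2 and Itih4 passed, both downward, with a median of -0.045 (-0.018 without control replicate 3 and -0.028 without control replicate 4), while Ptx3 (0.32, adjusted p = 0.119) and C1s1 (0.29, adjusted p = 0.32) had differences above 0 that did not pass.

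Among 27 immediate early genes 3 fell (Egr1, Ier2 and Junb), 0 rose and 18 were lower, with a median of -0.063 (-0.038 without control replicate 1 and -0.100 without OA replicate 1). Ier2 read 6.14, 5.89 and 6.17 in OA and 6.61, 6.46, 6.49 and 6.50 in control (-0.45 (95% interval -0.67 to -0.23, adjusted p = 0.0463)). Junb, an AP-1 subunit, read 6.53, 6.47 and 6.46 against 6.89, 6.70, 6.79 and 6.74 (-0.29 (95% interval -0.43 to -0.15, adjusted p = 0.041)). Other members were nearer to 0. Atf3 differed by -0.29 (adjusted p = 0.0619), Fos by -0.23 (0.314), Myc by -0.22 (0.154) and Jun by 0.14 (0.244). The mean level over the 27 genes was 7.14 to 7.20 in OA and 7.22 to 7.29 in control. Of 21 feedback genes of the ERK pathway Dusp6, the phosphatase that switches off ERK, fell (7.89, 7.88 and 7.93 against 8.15, 8.07, 8.20 and 8.33, a difference of -0.29 (95% interval -0.43 to -0.14, adjusted p = 0.0485)), and 15 of the 21 were lower. Ereg, the EGF-family ligand epiregulin, had a larger difference (-0.33) at an adjusted p of 0.0588.

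Few inflammatory genes passed beyond Lcn2. Of 32 chemokines and cytokines 25 were lower, with a median of -0.068, 2 fell, and 1 rose, Cxcl12, by the 0.28 given above. Ccl7 read 8.09, 7.87 and 7.94 in OA and 8.37, 8.19, 8.14 and 8.40 in control (-0.31 (95% interval -0.45 to -0.16, adjusted p = 0.0383)). Ccl9 read 6.06, 6.00 and 6.09 against 6.52, 6.15, 6.53 and 6.47 (-0.37 (95% interval -0.53 to -0.21, adjusted p = 0.0284)). Control replicate 2 was the lowest control for Ccl9. Ccl5 (-0.38, adjusted p = 0.248), Cxcl10 (-0.33, 0.227), Il6 (-0.24, 0.326), Tnf (-0.10, 0.771) and Ccl2 (-0.06, 0.89) did not pass. Il6 and Tnf had low values, with control means of 4.46 and 4.57 near the lower quartile of all genes (4.52). Of 24 genes of prostaglandin synthesis and reception 2 fell. Ptgs2, the inducible cyclooxygenase, read 6.97, 6.94 and 6.80 in OA and 7.33, 7.37, 7.26 and 7.39 in control, wholly apart (-0.43 (95% interval -0.59 to -0.28, adjusted p = 0.0103)), and Ptgir, the prostacyclin receptor, fell by 0.31 (difference -0.31; 95% interval -0.45 to -0.16, adjusted p = 0.0423). The call of Ptgs2 was lost without OA replicate 3 (adjusted p = 0.0755). Of 29 genes of Toll-like receptor and NF-kB signalling 0 passed in limma's test, with 2 higher and 4 lower at an unadjusted p under 0.05 and a median of 0.024, which was -0.008 without OA replicate 1 and 0.043 without OA replicate 2.

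Interferon-stimulated genes gave 2 falls among 36 members. Ifi27l2a read 8.60, 8.36 and 8.67 in OA and 9.23, 9.23, 9.11 and 9.01 in control (-0.60 (95% interval -0.82 to -0.37, adjusted p = 0.0117)). Znfx1, a helicase-like sensor of viral RNA, read 8.55, 8.60 and 8.58 against 9.22, 9.23, 9.20 and 9.22, with a difference of -0.64 (95% interval -0.80 to -0.48, adjusted p = 0.000211) and very little spread in either group. Of 47 dimmer probe sets of changed genes 45 had the sign of the brighter; the dimmer probe set of Znfx1 differed by 0.09 in the other direction, and with the average of both the adjusted p was 0.0212. The list's median was -0.045, and 26 members were lower. It was -0.022 and -0.029 without control replicate 2 or OA replicate 3, and -0.076 and -0.073 without control replicate 4 or OA replicate 1. Of 16 antigen presentation genes 12 were lower, the median was -0.097 and 0 passed in limma's test, with 5 lower and 0 higher at an unadjusted p under 0.05. Casp4, the inflammatory caspase that senses lipopolysaccharide inside the cell, fell by 0.43 (difference -0.43; 95% interval -0.61 to -0.24, adjusted p = 0.0259). Macrophages also express such genes, but all arrays come from the 3T3-L1 line, and no other cell was named as part of the cultures. Of 14 macrophage markers 0 passed, 0 had an unadjusted p under 0.05, 9 were lower, and the mean level was 4.68 to 4.70 in OA and 4.66 to 4.78 in control. In 4 of the 14 all OA arrays lay below all controls, which held for 871 of all 18820 genes. The list's median was -0.0245, and -0.168 when the lowest 1 in 3 genes were left out. RMA values have no zero, so absence could not be read from them, and the part of such cells in the result was not tested.

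Genes of 3 stress response lists that passed all fell. Slc7a11, the cystine-glutamate exchanger that feeds glutathione synthesis and is a target of both ATF4 and NRF2, read 7.25, 7.36 and 7.03 in OA and 7.53, 7.68, 7.73 and 7.65 in control (-0.44 (95% interval -0.62 to -0.25, adjusted p = 0.0193)). The OA arrays differed among themselves, but the highest remained below every control. Ppp1r15a, the GADD34 subunit that lets the phosphatase reverse eIF2α phosphorylation, read 8.27, 8.12 and 8.33 against 8.54, 8.55, 8.53 and 8.48 (-0.28 (95% interval -0.40 to -0.17, adjusted p = 0.0193)). These were the 2 falls among 28 genes of the integrated stress response, beside 0 rises and a median of -0.033 (-0.004 without OA replicate 2 and -0.019 without control replicate 3). Trib3 (-0.24, adjusted p = 0.138), Atf4 (-0.13, 0.305) and Ddit4 (0.30, 0.0691) did not pass. Srxn1, the sulfiredoxin that repairs peroxiredoxins, read 9.01, 8.98 and 8.91 in OA and 9.22, 9.26, 9.32 and 9.16 in control (-0.28 (95% interval -0.41 to -0.14, adjusted p = 0.041)), and with Slc7a11 made 2 falls among 29 NRF2 targets, of which 20 were lower. Nqo1 differed by -0.30 at an adjusted p of 0.119. Of 23 chaperones and XBP1 targets of the endoplasmic reticulum 1 fell, Sdf2l1 (-0.39 (95% interval -0.56 to -0.23, adjusted p = 0.0193)), while Hspa5, the central chaperone BiP, differed by -0.11 (0.363).

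Promoter sequence was set beside the fallen inflammatory, matrix and stress genes. Promoters of 4 of them that hold a match to a searched motif are shown as examples by the 110 bases before the start, from RefSeq on GRCm38.p6, 5′ to 3′ on the gene's strand. Capitals mark an EGR site at -23 for Mmp11, AP-1 sites at -102 and -45 for Srxn1, a cAMP response element at -12 for Ppp1r15a, and an AP-1 site at -53 followed by an NF-kB site at -35 for Ccl9, counted to the first base of each match from the transcription start.
Mmp11 (chr10:75932503-75932612, minus strand): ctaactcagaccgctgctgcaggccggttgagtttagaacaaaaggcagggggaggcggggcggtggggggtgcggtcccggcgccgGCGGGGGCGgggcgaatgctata
Srxn1 (chr2:152105414-152105523, plus strand): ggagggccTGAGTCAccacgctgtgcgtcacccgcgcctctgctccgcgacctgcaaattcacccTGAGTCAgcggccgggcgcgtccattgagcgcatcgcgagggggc
Ppp1r15a (chr7:45526269-45526378, minus strand): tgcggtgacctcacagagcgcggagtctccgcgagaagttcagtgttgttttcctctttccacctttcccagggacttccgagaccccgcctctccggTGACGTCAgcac
Ccl9 (chr11:83578637-83578746, minus strand): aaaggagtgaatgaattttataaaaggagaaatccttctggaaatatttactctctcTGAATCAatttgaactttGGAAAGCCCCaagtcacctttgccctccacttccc

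Casp4, which has 2 annotated starts, also has NF-kB matches in that window and is not shown. Such matches were not confined to fallen genes. Motifs were searched on both strands in the 250 bases before the start of 60 fallen, 65 risen and 14749 measured genes found in the promoter table. The EGR site GCGNGGGCG was in 11.7% of fallen, 7.69% of risen and 8.04% of measured genes. The AP-1 site TGANTCA was in 6.67%, 9.23% and 6.98%, and the cAMP response element TGACGTCA in 5.0%, 0% and 2.39%, which is 3 fallen genes. The NF-kB site was in 3.33%, 6.15% and 5.07%, and the CArG box bound by SRF in 1.67%, 3.08% and 1.47%. The C/EBP-ATF response element TGATGNAAT and the sterol regulatory element TCACNCCAC were in 0 promoters of changed genes. They are rare, in 0.712% and 1.21% of measured genes, so 0 among 60 fallen and 65 risen genes says little. No difference between these shares was tested, and a match is only a description of the letters.

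Genes of fat storage and oxidation moved little. Cidea, a lipid droplet protein that enlarges droplets, read 6.16, 5.93 and 6.05 in OA and 5.67, 5.59, 5.59 and 5.59 in control (0.43 (95% interval 0.25 to 0.62, adjusted p = 0.0209)), although control replicate 1 stood apart from the other controls, and the call was lost without OA replicate 1 (adjusted p = 0.111). It was the only riser among 20 adipocyte markers and among 25 lipid droplet coats and lipases. Crat, carnitine acetyltransferase, was the only riser among 24 genes of mitochondrial fatty acid oxidation (11.69, 11.52 and 11.62 against 11.44, 11.31, 11.36 and 11.38, a difference of 0.24 (95% interval 0.13 to 0.35, adjusted p = 0.0295)). Pck1, the phosphoenolpyruvate carboxykinase of glyceroneogenesis and a PPARγ target, read 11.36, 11.29 and 11.41 against 11.17, 11.06, 11.14 and 11.21 (0.21 (95% interval 0.11 to 0.32, adjusted p = 0.0488)) and was the only riser among 30 PPAR targets. Pck1 and Plpp3, a lipid phosphate phosphatase (0.24, adjusted p = 0.0355), were the 2 rises among 22 genes of triglyceride synthesis and glyceroneogenesis, 20 of which were higher. Plin1, the main droplet coat of adipocytes, differed by 0.19 at an adjusted p of 0.0502. The lists' medians were small: 0.065 for adipocyte markers, 0.068 each for PPAR targets and fatty acid oxidation, 0.059 for droplet proteins and 0.055 for triglyceride synthesis.

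In a panel of 29 genes of fatty acid handling, adipocyte function and stress 0 passed in limma's test, with 5 higher and 2 lower at an unadjusted p under 0.05. The canonical PPAR targets and lipid sensors are among them. Cpt1a differed by 0.17 (95% interval 0.05 to 0.28), Pparg by 0.14 (0.04 to 0.24), Angptl4 by 0.05 (-0.07 to 0.18), Pdk4 by -0.05 (-0.24 to 0.14), Plin2 by -0.01 (-0.11 to 0.09), Cd36 by 0.01 (-0.11 to 0.13), Fabp4 by -0.02 (-0.14 to 0.10) and Scd1, the desaturase that makes oleic acid, by 0.04 (-0.07 to 0.14). Each of these intervals ended below 0.5 on the log2 scale. Over all 18820 genes, 1504 were higher and 686 lower at an unadjusted p under 0.05. No gene passed among 27 of fatty acid uptake and activation (0 higher and 1 lower at an unadjusted p under 0.05), 22 desaturases and elongases (0 and 1), 20 of cholesterol synthesis and uptake (5 and 0), 13 LXR targets (3 and 0), 22 of peroxisomal oxidation (3 and 0), 18 fatty acid and metabolite receptors (2 and 0) or 31 of glucose uptake and insulin signalling (7 and 1). Among 20 lipogenic genes 1 fell, Mlx (-0.24), the partner of the carbohydrate-responsive factor ChREBP. Among 28 genes of ceramide and sphingolipid synthesis 1 rose, Asah2, a neutral ceramidase (0.28). Pygb, the brain-type glycogen phosphorylase, belongs to no list and was in the stable core (10.25, 10.23 and 10.33 against 9.93, 9.94, 9.92 and 9.89, a rise of 0.35 (95% interval 0.25 to 0.46, adjusted p = 0.00336)).

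**Figure D3:**
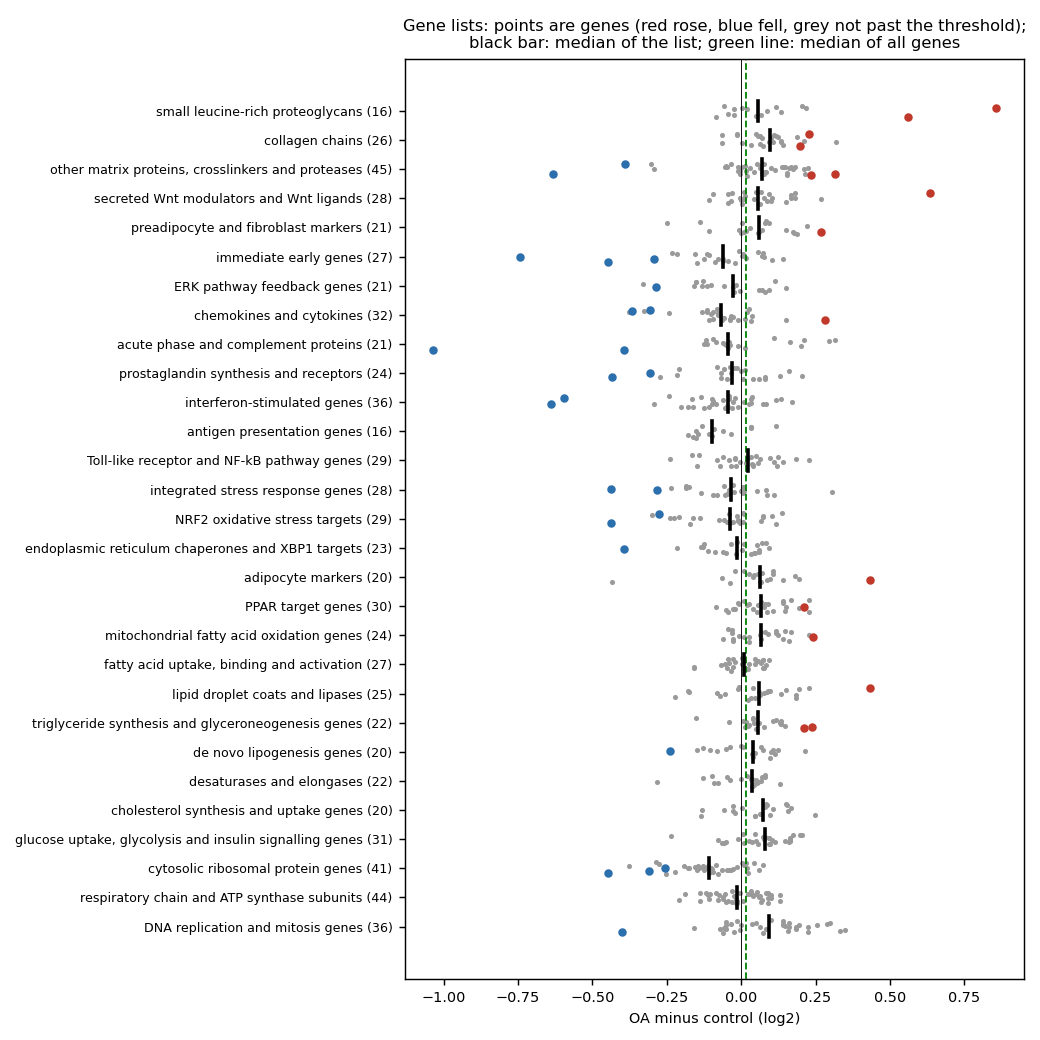
Difference of oleic acid from control (log2) for the members of 29 gene lists, with the number measured in parentheses; red points rose, blue points fell, grey points did not pass, black bars are list medians and the dashed green line is the median of all genes (0.0156). Matrix lists have medians to the right of that line, and so do lists of other kinds, such as replication (0.092), glucose and insulin (0.080) and cholesterol (0.072). Immediate early, chemokine, antigen presentation and ribosomal lists lie to the left, and most lists hold 0 to 3 genes that passed.

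Ribosomal protein genes were mostly lower. Of 73 measured genes of cytosolic ribosomal proteins 59 were lower, 5 fell and 0 rose, with a median of -0.095. Rps24 led, at 10.06, 9.92 and 9.98 in OA and 10.43, 10.48, 10.41 and 10.43 in control, without overlap (-0.45 (95% interval -0.60 to -0.30, adjusted p = 0.00419)). Rpl35a (-0.33), Rpl11 (-0.31), Rps12 (-0.31) and Rpl35 (-0.26) also passed. These genes have many processed pseudogenes with nearly the same sequence, several probe sets named Rps12 hold identical values, and the signal cannot be assigned to 1 copy. Vertebrate ribosomal protein messages usually begin in a pyrimidine run, the feature through which mTOR controls their translation. The 20 bases around an annotated start are shown for the fallen genes, with the run that covers the start in capitals. Rps24 has 2 annotated starts and Rpl35a has 3, and for these the start with the longest run was chosen.
Rps24 (chr14:24490668-24490687, plus strand): gctggggTCCTTCCTTgcgc
Rpl35 (chr2:39005122-39005141, minus strand): ccgCCCTTTCCTCTTTCTCT
Rpl35a (chr16:33056472-33056491, plus strand): gcttgCCTTCCTCTTTCCgc
Rpl11 (chr4:136053384-136053403, minus strand): ccataaggccacggggccgg
Rps12 (chr10:23787200-23787219, minus strand): tcatgcggccaccgccggcc
The first 3 have runs of 9, 18 and 13 pyrimidines, and the annotated starts of Rpl11 and Rps12 have none. A run of at least 5 covered at least 1 annotated start in 15.0% of fallen, 10.8% of risen and 10.4% of measured genes. The share was 35.6% of the ribosomal protein genes with an annotated start.

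Small RNAs of the nucleus gave the largest rise of all, in Scarna13, while most members of their list were lower. Scarna13, a guide RNA of the Cajal body, read 8.49, 8.01 and 8.00 in OA and 7.10, 7.12, 7.27 and 7.06 in control (1.03 (95% interval 0.59 to 1.47, adjusted p = 0.0209)), 2.04-fold, but without OA replicate 1 the adjusted p was 0.125. Of 26 small nucleolar and Cajal body RNA genes 20 were lower, with a median of -0.270, and none fell by limma's test, although 10 were lower at an unadjusted p under 0.05. The median was -0.154 without OA replicate 2 and -0.413 without control replicate 2. The mean level over the list was 7.68 to 7.94 in OA and 7.69 to 8.21 in control, so the groups overlapped. Of 44 subunits of the respiratory chain and ATP synthase 0 passed, with 2 higher and 3 lower at an unadjusted p under 0.05. Among 36 genes of DNA replication and mitosis 1 fell, Rpa3 (-0.40), 23 were higher, and the median was 0.092 (0.054 without control replicate 4 and 0.061 without OA replicate 1). Mki67 (0.35) and Top2a (0.29) did not pass (adjusted p = 0.0782 and 0.284).

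Risen and fallen genes also differed in the length of genome they span, measured from the RefSeq annotation of GRCm38.p6. The 86 risen genes had a median span of 39.6 kb (quartiles 17.5 and 131 kb), the 76 fallen genes 5.69 kb (3.34 and 15.0 kb), and all 18790 genes with a span 18.2 kb (6.07 and 47.6 kb). Spans under 10 kb made up 14.0% of risen, 65.8% of fallen and 34.7% of all genes, and spans over 50 kb 43.0%, 7.89% and 24.1%. The gradient was also seen over all genes. Among genes with a control level of at least 7, a minimum chosen after the data were seen, the median difference of OA from control went from -0.048 for spans under 5 kb (764 genes) to 0.090 over 100 kb (917 genes). Over the genes of these bins that did not pass it went from -0.044 (741 genes) to 0.087 (893 genes). Against the same controls the median over all genes went from 0.023 to 0.081 in PMA, from -0.034 to 0.058 in SA and from -0.013 to -0.011 in PA.

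The gradient could be followed in each array. For each of the 7 arrays, set against their common mean, the median difference of 2066 long genes (over 50 kb) minus that of 1659 short genes (under 10 kb) was taken. It was 0.020, 0.056 and 0.103 in the OA arrays in rising order. In the controls it reached from -0.084 to 0.015, with replicate 2 highest and the next at -0.049. The means were 0.060 ± 0.042 (SD, n = 3) and -0.046 ± 0.043 (SD, n = 4), a difference of 0.106. By this measure the groups did not overlap, by a narrow margin. They did overlap when each OA array was set against the 4 controls and each control against the other 3. Control replicate 2 was then at 0.080, above OA replicate 1 at 0.068. The contrast of long and short genes was chosen after the gradient had been seen on the same arrays, so it is a description and carries no test. The median span was 3.35 kb in the 41 ribosomal protein genes of the list, 5.02 kb in the immediate early list, 6.16 kb in the chemokine list and 122 kb in the collagen list. With no level minimum the difference was 0.055. What part RNA quality, amplification or gene length had in any single call was not tested.

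**Figure D4:**
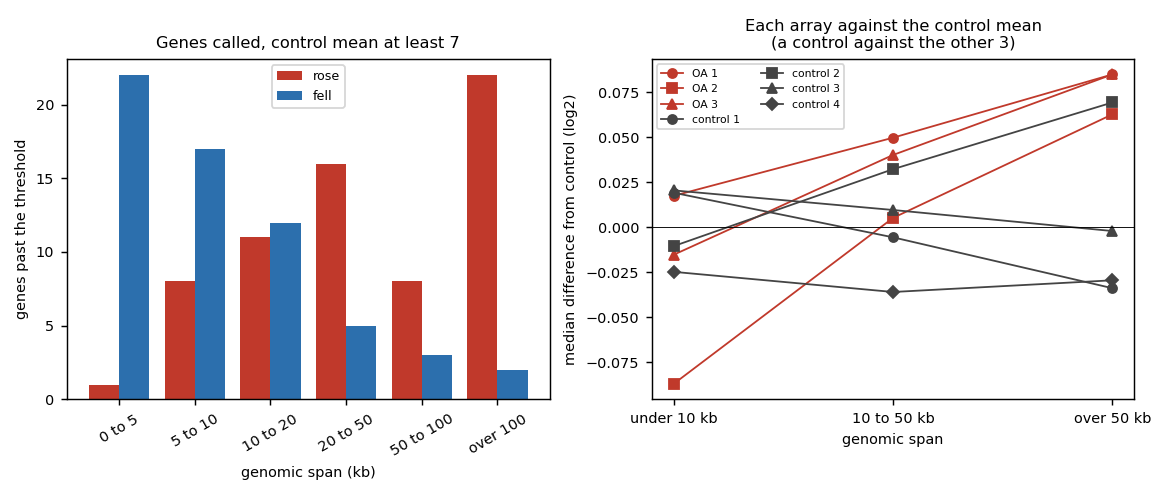
Left, number of genes that rose (red) or fell (blue) under oleic acid by genomic span in kb, among genes with a control mean of at least 7. Right, median log2 difference from the control mean of genes in 3 span classes for each OA array (red) and each control array set against the other 3 controls (dark); genes under 5 kb gave 22 falls and 1 rise and genes over 100 kb 2 falls and 22 rises, and control replicate 2 slopes upward like the OA arrays.

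The other acids were used to see where the response to oleic acid stands apart, by direct tests between groups with p-values adjusted over all genes and the 3 pairs. All pairs had the same dose and time. Stearic acid has the chain length of oleic acid and lacks its double bond, and 8 genes (0.0425%) differed between the acids, 2 higher and 6 lower in OA. Palmitoleic acid keeps the double bond on a chain 2 carbons shorter, and 27 genes (0.143%) differed, 6 higher and 21 lower. Palmitic acid differs in both, and 113 genes (0.600%) differed, 74 higher and 39 lower. The counts moved with single arrays. Without OA replicate 3 they were 1, 4 and 17. The SA count was otherwise 6 to 10. The PMA count was 11, 12 and 12 without PMA replicate 1, 3 or 4, and 16 and 7 without OA replicate 1 or 2. The PA count was 376 without PA replicate 1, 53 without PA replicate 4, and 69 and 49 without OA replicate 1 or 2. Genes that differed from SA, PMA or PA whichever array was left out numbered 1, 4 and 15. When each array was centred on its median, the split against PA became 205 higher and 18 lower, and against PMA 12 and 8; after cyclic loess the splits were 117 and 89, and 20 and 22, and 3 and 10 against SA.

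Against stearic acid, Slc7a11 was the gene that passed in every such fit. Its mean was 7.21 in OA and 7.86 in SA, a difference of -0.64 (95% interval -0.82 to -0.46, adjusted p = 0.0011). Oleic acid was also lower for Ccl5, the T cell chemokine RANTES (-0.92 (95% interval -1.21 to -0.63, adjusted p = 0.00367)), Ereg (-0.53 (95% interval -0.70 to -0.36, adjusted p = 0.00521)), Hmga2, an architectural chromatin protein (-0.52 (95% interval -0.71 to -0.33, adjusted p = 0.0114)), Ptgs2 (-0.43 (95% interval -0.59 to -0.27, adjusted p = 0.0154)) and Bcat1, a branched-chain aminotransferase (-0.39 (95% interval -0.53 to -0.25, adjusted p = 0.0106)). It was higher for Fmod (0.47 (95% interval 0.29 to 0.64, adjusted p = 0.0209)) and for Olfr553, an olfactory receptor with low values (0.30). Of the 8 genes, 3 also passed against control (Fmod, Ptgs2 and Slc7a11). For Egr1 the acids did not differ by the test (-0.14 (95% interval -0.29 to 0.01, adjusted p = 0.493)), nor for Prg4 (-0.03 (95% interval -0.29 to 0.22, adjusted p = 0.962)).

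Against palmitoleic acid, which shares the double bond, oleic acid was lower for BC023105, a predicted gene (-1.02 (95% interval -1.21 to -0.83, adjusted p = 7.99e-06)), Lcn2 (-0.83 (95% interval -1.03 to -0.63, adjusted p = 0.00022)), Prg4 (-0.72 (95% interval -0.97 to -0.46, adjusted p = 0.0109)), Chchd10, a small mitochondrial protein (-0.58 (95% interval -0.79 to -0.37, adjusted p = 0.0109)), and Abcc4, an exporter of cyclic nucleotides and prostaglandins (-0.51 (95% interval -0.65 to -0.37, adjusted p = 0.000737)). It was higher for B3galt2, a galactosyltransferase (0.43 (95% interval 0.31 to 0.56, adjusted p = 0.00144)), Mb, myoglobin (0.45 (95% interval 0.25 to 0.64, adjusted p = 0.0499)), Il2ra, an interleukin 2 receptor chain (0.36 (95% interval 0.21 to 0.51, adjusted p = 0.0363)), Lep, leptin (0.35 (95% interval 0.21 to 0.49, adjusted p = 0.0306)), Pnpla3 (0.30 (95% interval 0.19 to 0.41, adjusted p = 0.015)) and Pygb (0.24 (95% interval 0.13 to 0.35, adjusted p = 0.05)). BC023105, Lcn2, Abcc4 and B3galt2 passed whichever array was left out. In B3galt2 the OA mean was 8.76 and the PMA mean 8.33, beside 8.71 in SA and 8.36 in control. Of the 27 genes 10 also passed against control. With only the OA and PMA arrays in the fit 4 genes passed, and without the PA arrays 6.

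Against palmitic acid, oleic acid was higher for several matrix genes and lower for early response and inflammatory genes. Fmod (0.94 (95% interval 0.76 to 1.12, adjusted p = 7.99e-06)), Ogn (0.91 (95% interval 0.73 to 1.09, adjusted p = 9.46e-06)), Sfrp2 (0.80 (95% interval 0.58 to 1.03, adjusted p = 0.000908)) and P4ha3 (0.65 (95% interval 0.52 to 0.79, adjusted p = 3e-05)) were higher. Ccl5 (-1.15 (95% interval -1.43 to -0.86, adjusted p = 0.000278)), Egr1 (-0.80 (95% interval -0.95 to -0.65, adjusted p = 7.99e-06)), Lcn2 (-0.79 (95% interval -0.99 to -0.58, adjusted p = 0.000425)), Znfx1 (-0.69 (95% interval -0.85 to -0.53, adjusted p = 0.000116)), Dusp6 (-0.45 (95% interval -0.60 to -0.31, adjusted p = 0.00423)) and Junb (-0.45 (95% interval -0.59 to -0.31, adjusted p = 0.00359)) were lower. These 10 genes belong to the 15 that passed whichever array was left out. Of the 113 genes 44 also passed against control. With only the OA and PA arrays 8 genes passed.

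The values of each acid against control show these genes side by side; the comparisons share the 4 control arrays, so likeness between them is not independent. The 86 genes that rose with oleic acid had median differences of 0.197 in PMA, 0.188 in SA and 0.032 in PA, and the 76 that fell had -0.185, -0.212 and -0.074. These genes were picked by their difference in OA, which makes their OA values lean large. Smaller medians in the other acids therefore do not show a weaker response. Fmod, at 0.86 in OA, was at 0.55 in PMA, 0.39 in SA and -0.08 in PA. Ogn, at 0.56 in OA, was at 0.26 in PMA, 0.16 in SA and -0.36 in PA. Lcn2, at -1.04 in OA, was at -0.21 in PMA, -0.65 in SA and -0.25 in PA. Egr1 was at -0.74 in OA, with -0.57 in PMA, -0.60 in SA and 0.05 in PA. PA was tested against OA only, not against PMA or SA. Ptgs2 was at -0.43 in OA, with -0.15 in PMA, -0.01 in SA and 0.02 in PA. Slc7a11 was at -0.44 in OA, with -0.18 in PMA, 0.21 in SA and -0.05 in PA. For most changed genes no difference between OA and another acid passed, and the median halfwidth of the 95% interval of such a difference was 0.139 over the 162 genes, which limits the differences that could be resolved.

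**Figure D5:**
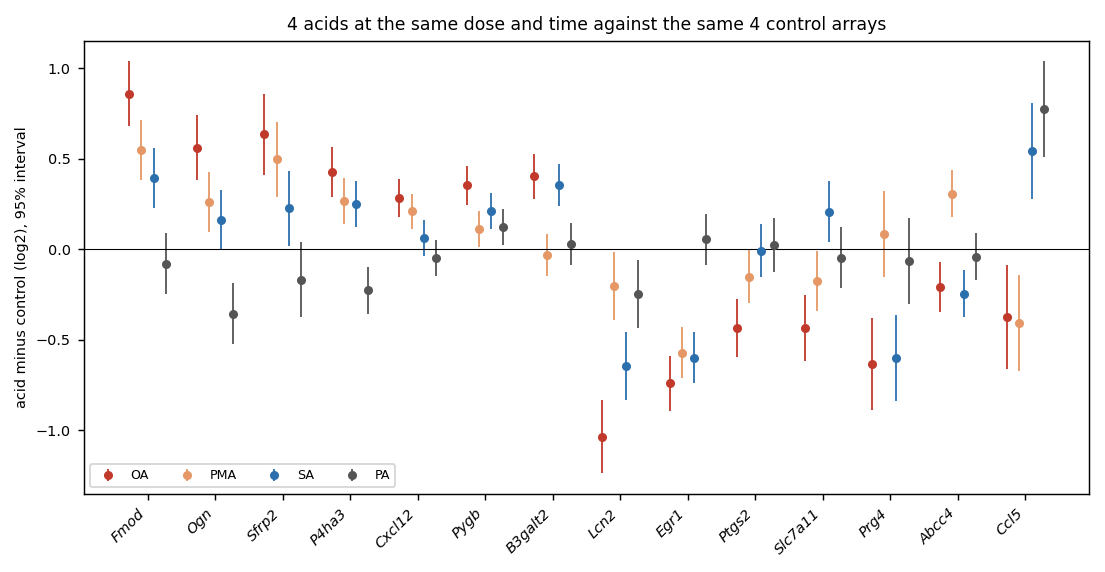
Difference from control (log2, points) with 95% intervals (lines) for 14 genes under oleic (OA), palmitoleic (PMA), stearic (SA) and palmitic (PA) acid at the same dose and time; the 4 control arrays are shared. Fmod, Ogn and Sfrp2 are highest and Lcn2, Ptgs2 and Slc7a11 lowest under OA, Egr1 is low under all but PA, and Ccl5 lies above 0 under SA and PA. All genes but Abcc4 and Ccl5 passed in OA against control, so their OA values lean large by choice.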

How the data were processed

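Each array (Affymetrix Mouse Gene 1.1 ST) received 100 ng of total RNA with an RNA integrity number over 9, per the labels. The authors deposited log2 expression values for each probe set, made by RMA, and the submitters' processing notes name R 2.15.0 and affy 1.34.0. The scan files were not used here. Of 35556 probe sets 21218 had exactly 1 symbol, 1881 had several and 12457 were not named; the brightest of a gene's probe sets over all 19 arrays was kept, with no filter on low values, which gave 18820 genes. Gene identifiers were matched to RefSeq on GRCm38.p6 for 21185 of the 21218 probe sets.

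All 19 arrays entered a single limma fit (version 3.58.1, R 4.3.3, lmFit followed by eBayes) in which every group had its own mean and the spread was pooled. P-values are two-sided and Benjamini-Hochberg adjusted, over all genes for oleic acid against control and over all genes and 3 pairs for oleic acid against the other acids. Intervals are 95% intervals without adjustment. The number of arrays limits the precision. On simulated data for oleic acid against control (3 runs of 18820 genes), 50% of 150 changes of 0.3, 94% of 150 of 0.5 and 100% of 300 of 1 were recovered, with 29 false calls in all. The simulated noise was drawn independently for each gene and array, with the same spread in every group. It held no effect of an array shared by many genes, so it does not give the recovery or false calls of the real arrays. Gene lists (42, with 1159 entries and 968 distinct measured genes, 20 found through an older symbol) are described by counts and medians. Named genes come from the 20 largest rises and the 20 largest falls without overlap between groups, up to 6 members past the threshold or the 4 smallest p of a list, a panel, and the 6 largest differences in each direction against each acid. Genes named in the closing part were chosen after their values were seen. The comparison, the lists and the rule were chosen with earlier results of these data known. Alternatives were other filters, probe-set choices, normalisations, spread models, sets of arrays, array weights, a replicate block and leaving out each array. Figures were drawn in Python 3.11.15.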

Additional observations from a re-analysis of the deposited data

Results flagged for a closer look

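In 111 groups of 4 arrays tested, 6 held an array whose gap to its nearest neighbour, divided by the range of the group, was above Dixon's 95% critical value. Chance flags about 1 in 20 groups. Cidea in control replicate 1 had a ratio of 0.953, at 5.67 beside 5.59 in the other controls. Control replicate 2 stood apart for 3 genes. Prg4 there had a ratio of 0.92 (8.61 against 8.32 to 8.35), Ccl9 0.864 (6.15 against 6.47 to 6.53) and Zfp521 0.859 (7.81 against 7.57 to 7.60). Hmga2 in control replicate 1 had a ratio of 0.902 (7.67 against 7.39 to 7.41), and Fmod in SA replicate 2 one of 0.878 (6.61 against 6.38 to 6.41). The OA group of 3 arrays is too small for this check.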

How the results depend on the processing

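Signs were followed only for the genes named by the rules above. None of their differences that passed changed sign under the alternatives fitted for them, and the other genes that passed were not checked for sign. The 162 changes against control became 255 when the lowest 1 in 3 genes were left out, 284 after cyclic loess, 54 with each array centred on its median, 337 with a trended robust spread, 102 with only the 7 arrays, 263 without the PA arrays and 1188 with array quality weights, and 22 to 105 with 1 array left out. The 8 genes against SA became 13 (loess), 14 (trended), 5 (only the arrays compared), 45 (weights) and 1 to 10 with 1 array left out. The 27 against PMA became 42, 48, 4 and 111 in the same settings, 6 without the PA arrays and 4 to 28 with 1 array left out. The 113 against PA became 195 without the dimmest genes, 206 after loess, 223 after centring, 270, 8 and 319, and 17 to 376 with 1 array left out. Why these counts moved was not tested. With the replicate number as a block 72, 5, 9 and 42 genes passed against control, SA, PMA and PA. The numbers did not pair the arrays: deviations of same-numbered OA and control arrays correlated at 0.021, -0.046 and -0.001. Of the 162 genes 157 also passed after loess and 71 with the block. Averaging a gene's probe sets (157) or keeping every probe set (210) left the first count within 1.5 times. With 3 OA arrays, a change near the median size of 0.314 passes or fails by the choice of arrays. Signal over background was not analysed here.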

Other observations

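The changed genes named first here were picked after their values were seen, and they show no theme. The semaphorins Sema3c (0.34, adjusted p = 0.011) and Sema3f (0.30, 0.0209) and the guidance ligand Slit2 (0.31, 0.0172) rose, as did the adhesion molecules Cdh11 (0.23, 0.0347) and Ncam1 (0.26, 0.041) and the matrix ligand of integrins Npnt (0.34, 0.0291). Gas6, the ligand of the TAM receptors, rose by 0.28 (0.0209). Stat5a, a transcription factor of adipogenesis and growth hormone signalling, rose by 0.28 (0.0304).

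The falls named next were also picked after their values were seen. The share that fell of all measured genes of these kinds was not counted. Of all genes 0.404% fell, and 65.8% of the fallen genes span under 10 kb. Among the falls were the mitochondrial import and assembly factors Immp1l (-0.44, adjusted p = 0.00419, not past with its probe sets averaged), Tomm7 (-0.36, 0.0485), Tomm20 (-0.31, 0.0423), Dnajc15 (-0.40, 0.0172) and Micos13 (-0.28, 0.0193). In the list of 44 respiratory chain and ATP synthase subunits 0 passed in limma's test, with 2 higher and 3 lower at an unadjusted p under 0.05. Also lower were the Mediator subunits Med21 (-0.45, 0.00336) and Med10 (-0.31, 0.0347). In the general factor TFIIH, Gtf2h5 fell (-0.27, 0.0411) while Gtf2h1 rose (0.32, 0.0348). The translocon subunit Sec61g fell by 0.39 (difference -0.39; 95% interval -0.53 to -0.25, adjusted p = 0.00986). S100a8, a calprotectin subunit, differed by -0.40 (0.0172) at low values, with 5.40, 5.48 and 5.54 in OA and 6.01, 5.68, 5.95 and 5.87 in control.

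Of 25 adipokines and adipocyte hormones Lcn2 alone passed. Of 21 thermogenic and muscle-type mitochondrial genes Cidea rose and Cox6a2 fell (-0.41 (95% interval -0.61 to -0.21, adjusted p = 0.041)). None passed in limma's test among 24 p53-linked and cell death genes (0 higher and 1 lower at an unadjusted p under 0.05), 25 of hypoxia and energy stress (4 and 3), 25 contractile and SRF target genes (5 and 0), 12 endothelial markers (0 and 0) or 12 skeletal muscle markers (0 and 0). At that unadjusted p 1504 of all 18820 genes were higher and 686 lower. Of the 162 changed genes 39 are in a list and 123 in none.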
